A study of Mus musculus with 14 samples.

Results

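DNA transposons are the cut-and-paste elements of the genome, and their annotated remains in the mouse were followed here by their RNA-seq reads in male germ cells. All annotated copies of transposable element (TE) class DNA were taken, 163077 of 3725827 TE copies (4.38%), together with every subfamily entry of that class in the count tables, 190 entries in each table, 192 in either and 188 in both. The choice used the class label alone and no measured value. Copies of the uncertain class DNA? (1027) were left out. The copies were short, with a median length of 160 bp, an interquartile range of 108 to 213 bp and a longest copy of 2178 bp.

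The cells came from C57Bl6/J mice that were wild type (WT) or carried the Dnmt3CKO/KO genotype (KO), in which the gene for Dnmt3C, a DNA methyltransferase of the male germline, is disrupted on both alleles. Spermatogonia (Spg), the mitotic germ cells, were sorted from testes at postnatal day 14 as EpCAM-positive, β2-microglobulin-negative cells, and spermatocytes (Spc), the meiotic cells, were sorted by DNA content from mice older than 20 days. There were 3 KO Spg, 3 WT Spg, 4 KO Spc and 4 WT Spc libraries, polyA-selected and stranded. The KO mice lack cells of the later meiotic stages, so the KO and WT Spc sorts do not hold the same mixture of stages, and the stages also differ in age and sorting method. In such bulk samples, fewer cells of a type and less RNA per cell cannot be told apart. The sources used do not say whether each library came from its own animal, and p-values then measure only the spread between these samples.

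Autonomous DNA transposons encode a transposase, which recognises the inverted repeats at the ends of the element, excises it and inserts it elsewhere. Nearly all copies in the mouse genome are old, broken by mutation and immobile, and most were non-autonomous elements that never carried a transposase gene. RNA over such a copy is usually a piece of a transcript that started elsewhere, for example in the gene whose intron holds it. The reads are therefore described with the place of each copy, on the copy's own strand.

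One whole copy is shown because it keeps both of its inverted ends. URR1B_dup6154 is a 221 bp element of the hAT-Charlie family at chr7:24876643-24876863, plus strand (GRCm38, RefSeq sequence), in an intron of Dmrtc2. The first and last 16 bases are in capitals, and 14 of the 16 match when one end is inverted and complemented. It was chosen for this and is not typical, since 0 to 8 of the end bases matched in the other copies read, many of them only in part.
URR1B_dup6154: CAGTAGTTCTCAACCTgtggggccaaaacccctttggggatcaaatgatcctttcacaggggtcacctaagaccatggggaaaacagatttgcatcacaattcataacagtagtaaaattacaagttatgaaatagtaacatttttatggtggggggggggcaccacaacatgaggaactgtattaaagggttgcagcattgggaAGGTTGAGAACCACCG

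Reads on URR1B_dup6154 were few: 40, 47 and 22 in KO Spg, 19, 33 and 14 in WT Spg, 38, 36, 17 and 22 in KO Spc and 13, 24, 33 and 7 in WT Spc. The KO and WT ranges overlapped in both stages. The other sequences are shown because they carry transcript ends in copies that the results below turn on. The stretches are the exonic parts of each copy, written on the transcript's strand, with the polyadenylation hexamer AATAAA or ATTAAA in capitals. MER58C_dup189 is shown over chr7:119742127-119742226 (plus strand), FordPrefect_dup82 over chr5:11109800-11109851 (minus strand) and Tigger17a_dup368 over chr6:146846276-146846328 (minus strand), all in GRCm38 coordinates with sequence from GENCODE M21 transcripts.
MER58C_dup189: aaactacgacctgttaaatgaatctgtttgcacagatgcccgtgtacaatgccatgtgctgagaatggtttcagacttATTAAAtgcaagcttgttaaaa
FordPrefect_dup82: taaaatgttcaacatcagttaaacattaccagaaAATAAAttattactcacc
Tigger17a_dup368: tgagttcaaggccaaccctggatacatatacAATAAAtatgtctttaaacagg

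The 14 libraries held 40555726 to 53323651 counts over genes and TEs. Whole reads could be recovered for every copy value, and a library had 28186 to 60166 reads on DNA transposon copies, spread over 4420 to 10315 copies. Over all libraries 31185 copies (19.1%) had a read and 131892 (80.9%) had none. Summed pachytene markers ran from 276 to 559 CPM (the counts-per-million unit) in KO Spc and from 10642 to 19574 in WT Spc, and from 202 to 223 in KO Spg against 352 to 1861 in WT Spg, with no overlap in either stage. Summed markers of Leydig cells (53.3 to 318 CPM against 13.9 to 29.5), macrophages (21.7 to 104 against 2.50 to 5.41) and peritubular cells (17.4 to 172 against 3.62 to 10.9) were higher in KO Spc than in WT Spc, and those of spermatids were lower (2.94 to 11.7 against 79.2 to 1647), again with no overlap. The part of these differences in the results was not tested. Dnmt3c counts were 116, 58 and 67 in KO Spg and 89, 65 and 53 in WT Spg, and 55, 56, 52 and 57 in KO Spc and 28, 11, 19 and 25 in WT Spc. The sources used here do not give the deleted part of the gene, so this level checks no label.

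DNA transposons took a small share of the libraries in both stages and genotypes. Their share of all counts was 0.0640%, 0.128% and 0.0731% in the KO Spg libraries and 0.0597%, 0.117% and 0.102% in WT Spg. In KO Spc it was 0.0971%, 0.0927%, 0.117% and 0.0950%, and in WT Spc 0.0699%, 0.0800%, 0.103% and 0.0674%. The ranges overlapped in both stages, and replicate spread exceeded counting error by far, since the widest 95% Wilson interval reached 0.00105 percentage points to either side. The means were 0.0883% ± 0.0345 (SD, n = 3) and 0.0929% ± 0.0296 (SD, n = 3) in KO and WT Spg (exact permutation test, two-sided, p = 1). They were 0.101% ± 0.0113 (SD, n = 4) and 0.0800% ± 0.0160 (SD, n = 4) in KO and WT Spc (exact permutation test, p = 0.114, 0.305 after Benjamini-Hochberg adjustment over 16 tests). As a share of TE counts the order turned round: 1.14% to 1.61% in KO Spc and 3.50% to 3.84% in WT Spc, a difference of -2.39 percentage points, in libraries where the total of TE counts differed.

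The hAT-Charlie family led in every group, with 105698 copies (64.8% of the class) and a mean of 69.4% to 71.5% of DNA transposon counts. TcMar-Tigger followed with 35122 copies (21.5%). It took 19.0% of DNA transposon counts in KO Spg, 19.4% in WT Spg, 19.3% in KO Spc and 14.6% in WT Spc. As a share of all counts it was 0.0194% ± 0.00233 (SD, n = 4) in KO Spc and 0.0117% ± 0.00274 (SD, n = 4) in WT Spc. The 2 ranges did not overlap, at the smallest p that 4 against 4 libraries allow (exact permutation test, p = 0.029, adjusted p = 0.229). With the alike Spc replicates 1 and 4 counted as 1 sample, 3 against 3 could not go below 0.10, here and in the Spc comparisons that follow. As a share of TE counts the difference reversed, to -0.286 percentage points.

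hAT-Tip100, with 9444 copies (5.79%), was lower in KO Spc on either denominator. It took 4.49%, 4.71%, 5.04% and 10.2% of DNA transposon counts in KO Spg, WT Spg, KO Spc and WT Spc. Its share of all counts was 0.00505% ± 0.000329 (SD, n = 4) in KO Spc and 0.00800% ± 0.000834 (SD, n = 4) in WT Spc, again without overlap (exact permutation test, p = 0.029, adjusted p = 0.229). A single copy, MamTip2_dup338, whose reads are given below, made up most of this difference. The share of the family without that copy was not tested. None of the 16 family tests passed after adjustment.

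The remaining families were small. MULE-MuDR had a mean share of DNA transposon counts that went from 0.311% in WT Spg to 1.03% in WT Spc and TcMar-Tc2 from 0.612% to 1.70%, while MuDR went from 0.583% to 0.194% and PiggyBac from 0.226% to 0.0804%. In KO Spc the same 4 families stood at 0.219%, 0.750%, 0.422% and 0.200%. hAT-Blackjack held 1.11% to 1.46% over the 4 groups, hAT 0.786% to 0.912%, TcMar-Mariner 0.401% to 0.754%, the unassigned DNA entries 0.285% to 0.432% and TcMar 0.0918% to 0.146%. TcMar-Pogo, with 21 copies, took at most 0.00631%. These small shares were not tested.

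The place of the reads differed between WT Spc and the other groups. Of the copies, 25.1% lay in introns of genes on the same strand, 1.51% overlapped an exon on the same strand, 26.1% lay in genes on the other strand only and 47.4% lay between genes. In KO Spg the introns held 62.9%, 72.9% and 67.3% of the copy reads, and in WT Spg 63.0%, 70.3% and 72.2%. In KO Spc they held 58.8%, 63.1%, 60.2% and 56.9%, and in WT Spc 31.9%, 40.8%, 49.3% and 32.2%. WT Spc stood below all other libraries. Strand mattered: in Spg there were 435 to 1073 reads per 1000 copies for intronic copies on the gene's strand and 62.1 to 111 for copies on the other strand.

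Exons and the space between genes held more of the reads in WT Spc. The exonic share was 5.80% ± 0.739 (SD, n = 4) in KO Spc and 18.9% ± 3.39 (SD, n = 4) in WT Spc, against 6.96% ± 2.14 (SD, n = 3) in WT Spg. Most of the exonic reads in WT Spc lay on a single copy, MER58C_dup189, whose reads are given below. The higher exonic share thus largely describes that copy, and the share without it was not tested. The share between genes was 23.4% ± 2.61 (SD, n = 4) in KO Spc, 30.8% ± 3.13 (SD, n = 4) in WT Spc and 15.9% ± 2.27 (SD, n = 3) in WT Spg. For the intronic, exonic and intergenic shares the KO and WT Spc libraries did not overlap (exact permutation test, p = 0.029 for each, adjusted p = 0.105 over 24 tests), nor did WT Spc and WT Spg (exact permutation test, p = 0.057 for each, the smallest that 3 against 4 allow). Copies opposite a gene held 8.94% and 8.60% of the reads in KO and WT Spg and 11% and 11.7% in KO and WT Spc, without overlap between the stages of either genotype (exact permutation test, p = 0.057 for each) and with overlap between the genotypes. Between KO Spc and KO Spg the intergenic share did not overlap either, at 16.6% ± 2.49 (SD, n = 3) in KO Spg, while the intronic and exonic shares did. No place passed after adjustment. In Spg the KO and WT ranges overlapped for all 4 places.

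**Figure D1:**
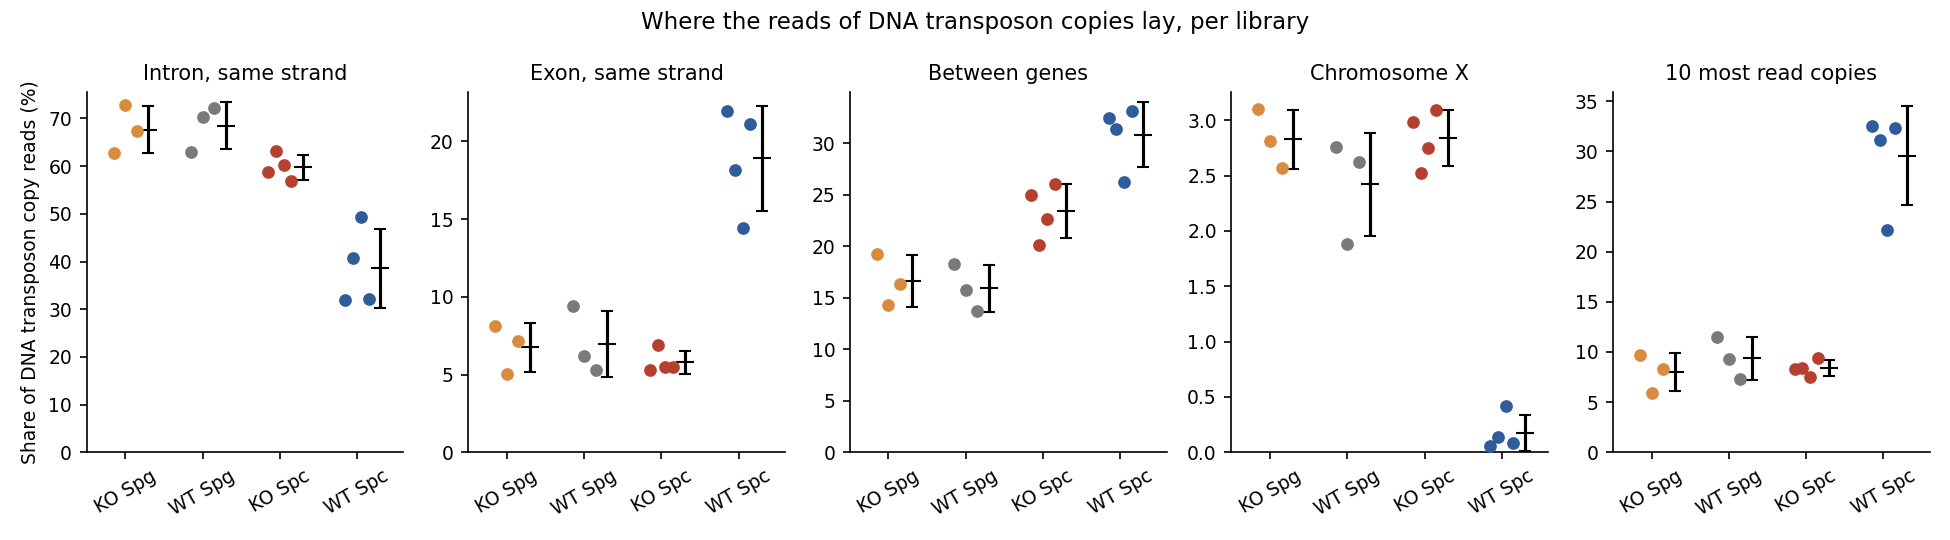
Percent of DNA transposon copy reads by place of the copy (vertical axis, percent of reads; points are libraries, crossbars with whiskers the group mean ± SD) for copies in introns, in exons and between genes, for copies on chromosome X and for the 10 most read copies of each library. The intronic share was 31.9% to 49.3% in the 4 WT Spc libraries and 56.9% or more in every other library.

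The reads were also gathered on fewer copies in WT Spc. The number of copies needed to hold 50% of a library's reads was 806, 1008 and 776 in KO Spg, 597, 825 and 878 in WT Spg, 965, 779, 1067 and 903 in KO Spc, and 66, 73, 274 and 70 in WT Spc. The 10 leading copies of a library held 32.5%, 31.2%, 22.2% and 32.3% of the reads in WT Spc and a mean of 8.40% ± 0.80 (SD, n = 4) in KO Spc (exact permutation test, p = 0.029, adjusted p = 0.105). WT Spc replicate 3 was the least concentrated of its group on both measures.

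Copies on the X chromosome, which is silenced in meiosis at the pachytene stage, had almost no reads in WT Spc. Of all copies 5.68% (9262) lie on X. They took 3.10%, 2.81% and 2.57% of reads in KO Spg and 2.76%, 1.89% and 2.62% in WT Spg. In KO Spc they took 2.99%, 2.52%, 2.75% and 3.09%, and in WT Spc 0.0541%, 0.141%, 0.414% and 0.0881%, which rest on 20, 55, 207 and 28 reads. KO Spc stood with both Spg groups, and WT Spc lay below them with no overlap (KO against WT Spc, exact permutation test, p = 0.029, adjusted p = 0.105). WT Spc replicate 3 had the highest X share of its group, 0.414% with a 95% Wilson interval of 0.361% to 0.474%, which covers counting error only.

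By chromosome, the ratio of copy reads on X, scaled to library size, between WT Spc and WT Spg was 0.0731, while the autosomes ranged from 0.473 (chromosome 19) to 1.90 (chromosome 7). Chromosome 7 holds MER58C_dup189, the most read copy of the class. In the KO the X ratio was 1.15, inside the autosomal range of 0.967 to 1.34. Of 39 X copies with at least 5 reads on average in WT Spg, 27 were lower in every WT Spc library than in every WT Spg library and 16 had no read there, and 588 of 1761 autosomal copies were lower in the same way. Copies picked for reads in WT Spg are more likely to be lower elsewhere, on X and autosomes alike.

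The count tables were then tested by subfamily with edgeR's quasi-likelihood test, at a Benjamini-Hochberg adjusted p under 0.01 over all genes and TE subfamilies together. CPM values are on library sizes scaled by TMM over the 14 libraries. In Spg, KO against WT, none of the 157 subfamilies tested passed, where 0.0741% of all features did (0.0695% higher and 0.00463% lower). DESeq2 also called 0, and 5 had an unadjusted p under 0.05. The median log2 fold change was -0.06, against 0.02 over all features. The smallest p-values belonged to Charlie6 (log2 fold change -2.37, edgeR adjusted p = 0.411), MamTip2 (-1.64, adjusted p = 0.438), Tigger17 (-0.95, 0.56), Charlie26a (-1.51, 0.621) and Eulor9B (-2.16, 0.622).

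In Spc, 22 of 157 subfamilies (14%) differed between KO and WT, where 57.4% of all features and 28% of the entries of other TE classes did. Higher in KO were 3 (27.4% of all features) and lower 19 (30.1%). The median log2 fold change was 0.19, against 0.11 over all features. Scaling by library totals instead of TMM gave 31 higher and 12 lower, since it moves the median of genes from 0.11 to 0.79 on the log2 scale, and DESeq2 called 50. With Spc replicates 1 and 4 summed 14 were called, 1 higher and 13 lower.

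MER58C, a hAT-Charlie subfamily of 436 copies, had the strongest support among those lower in KO Spc. Its CPM was 19.96, 20.9, 22.5 and 19.0 in KO Spc and 205, 162, 116 and 184 in WT Spc. The KO libraries lay close together and far under every WT library. KO Spg (22.0, 23.3 and 21.9) and WT Spg (25.5, 31.4 and 21.7) stood near the KO Spc level. The log2 fold change was -3.00 (SE of 0.23, adjusted p = 6.61e-06 by edgeR).

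MamTip2, of the hAT-Tip100 family, had 2.69, 1.75, 2.78 and 2.63 CPM in KO Spc and 42.7, 65.5, 27.4 and 47.2 in WT Spc. The groups did not overlap, and KO fell by 4.19 on the log2 scale (SE of 0.35, adjusted p = 9.74e-06 by edgeR). In Spg it stood at 1.11, 2.46 and 0.957 CPM in KO and 2.90, 7.96 and 2.84 in WT, groups that did not overlap but did not pass the test.

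Charlie6 had 0.586, 0.484, 0.705 and 0.468 CPM in KO Spc and 8.02, 10.2, 10.2 and 8.10 in WT Spc, a fall of 3.99 on the log2 scale (SE of 0.35, adjusted p = 1.17e-05 by edgeR). Ricksha_c, of the MULE-MuDR family, had 1.03, 1.61, 1.45 and 1.53 CPM against 8.92, 14.9, 13.5 and 9.77 and fell by 3.03 (SE of 0.34, adjusted p = 5.53e-05 by edgeR). Neither overlapped between genotypes.

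Kanga11a, of the TcMar-Tc2 family, had 0.546, 0.340, 0.80 and 0.590 CPM in KO Spc and 3.06, 32.5, 16.8 and 2.36 in WT Spc. The WT libraries differed among themselves more than in the subfamilies above, and the log2 fold change was -4.52 (SE of 0.85, adjusted p = 0.00103 by edgeR). Its most read copies lie in and beside genes of a multicopy family on chromosome 14 that resemble each other, so that shared reads could be split between them, and its value is uncertain.

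The 14 other subfamilies lower in KO Spc had log2 fold changes from -3.98 (UCON23) to -1.18 (MER45B). All 3 that rose were rare: Charlie7a (2.78, mean 0.710 CPM in KO Spc), Charlie11 (1.87) and MER63C (1.42). The subfamilies with the most reads otherwise did not pass. URR1B, with 16889 copies and a mean of 115 CPM over all libraries, had a log2 fold change of 0.01 (edgeR adjusted p = 0.971). URR1A, with 17621 copies and 97.9 CPM, had 0.51 (adjusted p = 0.047). MER5A (46.5 CPM), MER2 (41.8), MER20 (34.9), RCHARR1 (33.4), Charlie1a (22.6), Tigger7 (22.4) and MER5B (21.2) were not called in any comparison, so that MER58C (63.9 CPM) was the only one of the 10 most read that was.

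Between stages in WT, 18 of 172 subfamilies differed, 16 higher in Spc and 2 lower, where 51.4% of all features did (28.9% higher and 22.5% lower). Their median log2 fold change was 0.17, against 0.06 over all features. Scaling by library totals gave 22 calls, 7 of them higher, and the count was 10 without WT Spg replicate 3. This comparison and that of KO with WT Spc share the WT Spc libraries. MER58C rose by 2.67 on the log2 scale, MamTip2 by 3.32 (SE of 0.49, adjusted p = 7.62e-05 by edgeR), Charlie6 by 2.79, Ricksha_c by 2.32 and Kanga11a by 3.97 (SE 1.08, adjusted p = 0.00522). The Kanga11a call was lost without WT Spg replicate 1 or 3 (adjusted p = 0.0223 and 0.029) or WT Spc replicate 2 (0.0163).

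Tigger17 had 1.92, 3.40 and 1.98 CPM in WT Spg and 27.2, 14.6, 11.9 and 25.5 in WT Spc, with no overlap and a log2 fold change of 3.02 (SE of 0.44, adjusted p = 6.28e-05 by edgeR). Charlie10 had 0.795, 1.73 and 1.33 CPM and then 10.6, 13.8, 5.96 and 9.25, again with no overlap (2.94, SE 0.45, adjusted p = 8.62e-05). The 2 subfamilies that were lower in WT Spc were Chap1_Mam (-1.67) and MamTip1 (-3.14).

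Between stages in the KO, 1 subfamily was called, where 2.99% of all features were (2.95% higher and 0.0355% lower), and 16 had an unadjusted p under 0.05. Tigger17 had 1.13, 1.60 and 1.15 CPM in KO Spg and 5.31, 2.76, 5.83 and 6.92 in KO Spc, without overlap (log2 fold change 2.01, SE of 0.42, adjusted p = 0.00955 by edgeR). Summed markers of Leydig cells (4.77 to 9.10 CPM in KO Spg against 53.3 to 318 in KO Spc), macrophages (0.762 to 1.28 against 21.7 to 104) and peritubular cells (6.19 to 8.06 against 17.4 to 172) were higher in KO Spc too, and their part in this difference was not tested. The call remained only without KO Spc replicate 2 or without WT Spc replicate 3. Next in order, and not called, were Tigger6b (1.54, adjusted p = 0.0357), Kanga1 (1.57, 0.048), Charlie4 (1.81, 0.0672) and FordPrefect (0.65, 0.0881).

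The difference between the genotype effects of the stages was tested as an interaction, KO minus WT in Spc less KO minus WT in Spg. It was called for 6 subfamilies, all lower in Spc, where 24.9% of all features were called (10.7% higher and 14.3% lower), and 24 subfamilies had an unadjusted p under 0.05. They were MER58C (-2.79, SE of 0.29, adjusted p = 0.000153 by edgeR), MamTip2 (-2.62, SE 0.63, 0.00518), Charlie10 (-2.37, SE 0.58, 0.00554), Charlie24 (-2.12, 0.00571), Charlie19a (-2.37, 0.00577) and UCON23 (-3.50, 0.00897). The count depended on single libraries. It was 1 without KO Spg replicate 2, WT Spg replicate 1 or 3 or KO Spc replicate 1 or 4, it was 2 without KO Spc or WT Spc replicate 2, 3 without WT Spc replicate 1 and 10 without WT Spg replicate 2. With the replicate number as a block 6 were called, 5 of them the same, and UCON23 was not among them.

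A subfamily's count adds many copies, and in most of the called ones a single copy held more than 50% of it in the higher group. This was looked at after the values were seen and is a description. Of the 19 subfamilies lower in KO Spc, 15 had more than 50% of their WT Spc reads on 1 copy, with a median of 72.2% over the 19. The ratio was also taken without that copy, which draws it toward 0 by construction since the copy was picked in the higher group, and 14 kept a negative sign, 9 of them by at least 1 on the log2 scale. Of the 16 higher in WT Spc than in WT Spg, 12 had more than 50% on 1 copy (median 66.6%), and 12 kept a positive sign without it.

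MER58C had 99.2% of its WT Spc reads on MER58C_dup189 and a log2 ratio of 0.72 for KO over WT Spc on the rest. The leading copy held 97.3% for Tigger17 (rest 0.80), 92.2% for Ricksha_c (rest 0.38) and 87.8% for Charlie19a (rest 0.42), and in all of these the remaining copies together had the opposite sign, with KO and WT Spc libraries that overlapped. Charlie6 (89.1%, rest -0.996) and MamTip2 (88.6%, rest -1.14) kept theirs at a smaller size. Kanga11a was spread over more copies (36.5%, rest -4.14). The rare Eulor9B had 100% of its WT Spc reads on Eulor9B_dup1.

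**Figure D2:**
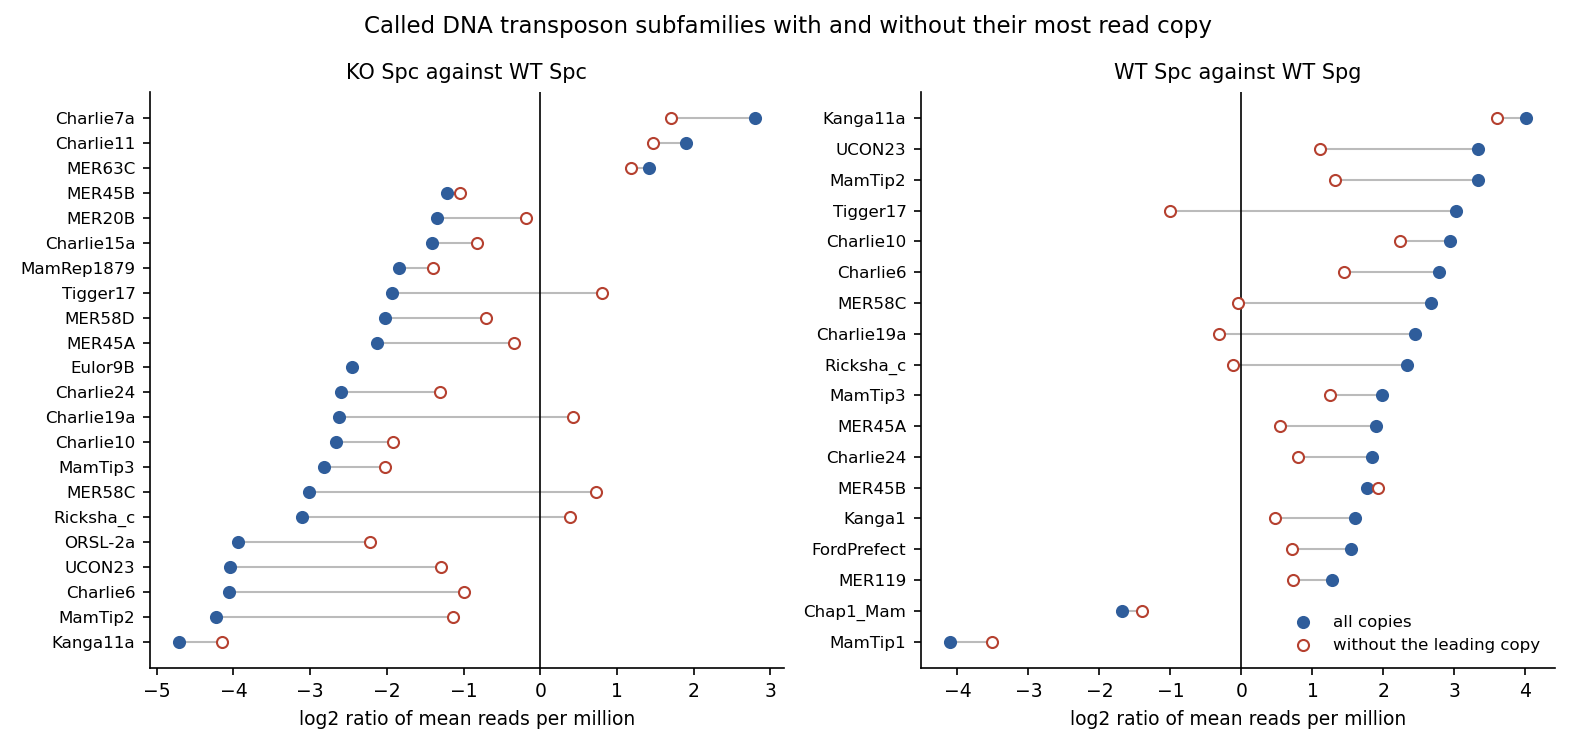
Log2 ratio of each called subfamily with all its copies and without its leading copy (filled and open points, horizontal axis in log2 ratio of mean reads), for KO over WT Spc on the left and for WT Spc over WT Spg on the right. On the left MER58C, Tigger17, Ricksha_c and Charlie19a lay below 0 with the leading copy and above 0 without it.

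At the level of single copies, values were tested with limma on log2 of TMM-scaled CPM per kb of copy plus 0.1, so that a fold change understates the change of low copies. Only copies with a mean of at least 5 reads entered. A copy that passed this filter only through the group where it is high had to differ, and the counts below are descriptions of the copies that passed. In Spg, 0 of 1709 copies were called, where 0.00498% of all TE copies were, all of them higher. Unadjusted p-values under 0.05 were found for 77 copies, and edgeR on the recovered reads called 14, beside 4982 of all 60267 TE copies. Without KO Spg replicate 3 limma called 6, beside 5495 of all TE copies. The median log2 fold change was -0.11, against 0.14 over all TE copies.

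The copies with the smallest p in Spg all had limma adjusted p = 0.0109, just over the threshold. MER5A_dup4271 (chr9:83250153-83250302, minus strand, in an intron of Gm27216) had 97, 40 and 85 reads in KO Spg and 0, 0 and 2 in WT Spg. In Spc it had 12, 15, 37 and 16 reads in KO and none in WT, where it was at least 4.35-fold higher, with the floor for a group at 0 set at 3 reads in each library. It was thus higher in every KO library than in every WT library of both stages.

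MamTip2_dup338 (chr6:127781135-127781194, minus strand, between genes) had no read in KO Spg and 103, 260 and 22 in WT Spg, at least 48.7-fold lower in KO. Charlie12_dup845 (chr17:27308783-27308836, minus strand, in an intron of Gm49793) had none in KO and 6, 48 and 18 in WT, at least 9.12-fold lower. MER20B_dup620 (chr12:98455802-98455953, plus strand) had none in KO and 14, 10 and 9 in WT, at least 3.95-fold lower. None of these 3 copies overlapped between the genotypes, in a stage where the pachytene markers did not overlap either.

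URR1A_dup6086 (chr7:4463951-4464149, plus strand, in an intron of Eps8l1) had 9, 15 and 8 reads in KO Spg and none in WT Spg, at least 3.28-fold higher. Its host gene, which encodes a relative of the actin regulator Eps8, was also higher in KO Spg (log2 fold change 3.44, edgeR adjusted p = 0.0066).

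In Spc, 512 of 1349 copies (38.0%) differed between KO and WT, where 50.7% of all TE copies did. Higher in KO were 245 (38.9% of all TE copies) and lower 267 (11.8%). The median log2 fold change was 0.63, against 1.31 over all TE copies, and 152 copies had a group with no read, 144 of them called. Copies of 2 other old classes stood close to the DNA transposons, with 41.6% called of 596 L2 copies and 37.7% of 971 MIR copies. L1 (72.1%) and ERVK (57.6%), which include young elements, lay above. On the TPM values as deposited 389 copies were called, 136 of them higher, beside 26203 of all 58471 TE copies, 19517 of them higher.

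**Figure D3:**
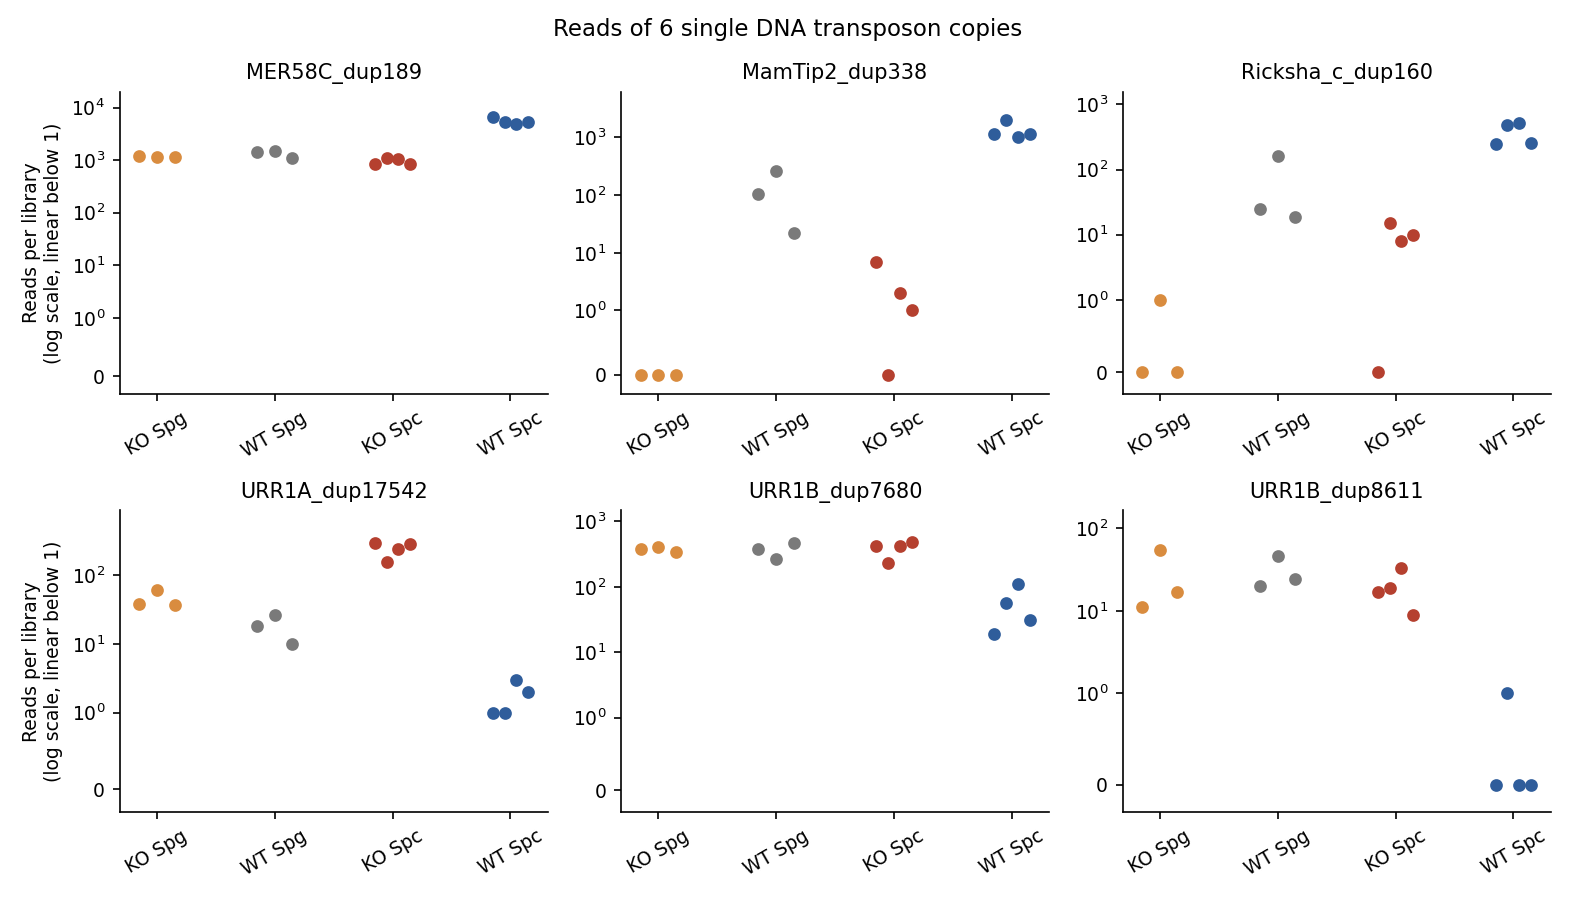
Reads of 6 single copies in each library (vertical axis, recovered reads on a log scale that is linear below 1; points are libraries, coloured by group). MER58C_dup189 had 828 to 1078 reads in KO Spc and 4789 to 6608 in WT Spc.

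MER58C_dup189 was the most read copy of the class. It is 117 bp long (chr7:119742127-119742243, plus strand) and lies in the last exon of Ppp1ccb, annotated as a pseudogene and named for a protein phosphatase catalytic subunit. It had 1212, 1174 and 1147 reads in KO Spg and 1423, 1500 and 1106 in WT Spg, ranges that overlapped. In KO Spc it had 853, 1078, 1068 and 828 reads and in WT Spc 6608, 5327, 4789 and 5255.

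Every WT Spc library was far above the other 10. The log2 fold change between KO and WT Spc was -3.13 (SE 0.17, limma adjusted p = 2.36e-06), beside -2.91 for the host, and between WT Spc and WT Spg 2.72 (SE 0.17, adjusted p = 4.72e-07), beside 2.12. Its sequence, shown above, carries ATTAAA 16 bases before the annotated transcript end.

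The copies with the largest falls in KO Spc lay mostly between genes. MamTip2_dup338 had 7, 0, 2 and 1 reads in KO Spc and 1164, 2049, 1001 and 1150 in WT Spc (log2 fold change -10.16, SE 0.76, limma adjusted p = 8.03e-06). The nearest gene upstream on its strand was Mir7233, 6890 bp away. RCHARR1_dup3203 (chr8:110132109-110132358, plus strand) had 3, 0, 0 and 0 reads against 628, 666, 579 and 513 (-8.87, SE 0.51, limma adjusted p = 2.7e-06). Both were close to silent in KO Spc and read in every WT Spc library.

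Charlie24_dup143 (chr7:73832613-73832745, plus strand, in an intron of Gm21269) had 0, 0, 0 and 1 reads in KO Spc and 266, 336, 367 and 228 in WT Spc (-8.87, SE 0.46, limma adjusted p = 2.3e-06). MER2_dup9026 (chr15:79961974-79962044, plus strand) had none against 60, 137, 56 and 84, at least 43.3-fold lower. MER58D_dup7 (chr1:92994856-92994897, minus strand) had none against 38, 114, 129 and 35, at least 37.2-fold lower. None of the 5 overlapped between genotypes.

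The largest rises lay mostly between genes too. URR1A_dup17542 (chr19:51247985-51248204, minus strand) had 286, 155, 236 and 278 reads in KO Spc and 1, 1, 3 and 2 in WT Spc (5.97, SE 0.48, limma adjusted p = 1.07e-05). In Spg it had 38, 61 and 37 in KO and 18, 26 and 10 in WT, and it fell between WT Spg and WT Spc by 2.26 (adjusted p = 0.0093). KO was above WT without overlap in both stages, and passed the test in Spc only, though that difference between stages was not tested for copies.

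RMER30_dup10 (chr1:25907461-25907664, minus strand) had 261, 73, 244 and 313 reads in KO Spc and 0, 0, 17 and 2 in WT Spc (5.82, SE 0.94, limma adjusted p = 0.000354). MER5A_dup7748 (chr15:94607829-94607934, minus strand) had 66, 24, 77 and 87 against 0, 0, 1 and 0 (6.16, SE 0.62, adjusted p = 2.82e-05). In both, KO Spc replicate 2 was the lowest KO library and still above every WT library.

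URR1B_dup10483 (chr10:118689825-118690042, minus strand) had 83, 51, 75 and 81 reads in KO Spc and none in WT Spc, at least 15.97-fold higher. RCHARR1_dup4337 (chr11:3191745-3191858, minus strand) had 67, 26, 71 and 86 and none, at least 13.9-fold higher. It lies in an intron of Sfi1, a centrosomal protein gene, which rose by 2.29 on the log2 scale itself.

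Between stages in WT, 266 of 1492 copies (17.8%) differed, where 13.2% of all TE copies did. Higher in Spc were 149 (7.02% of all TE copies) and lower 117 (6.2%). The median log2 fold change was -0.77, or -0.72 with copies that had no read in 1 group set at their bound, against -0.26 over all TE copies. Of L2 copies 18.2% were called, of MIR copies 18.4%, of L1 6.54% and of ERVK 15.5%. Without WT Spg replicate 3 the DNA transposon count was 121 (3576 of all 59716 TE copies) and without WT Spc replicate 1 it was 176 (5193). The TPM values as deposited gave 245, 106 of them higher, beside 7327 of all TE copies, 2985 of them higher.

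The largest rises from WT Spg to WT Spc started near 0. Charlie10_dup320 (chr15:11971442-11971569, plus strand), 1356 bp after the end of 1700047G03Rik, had 0, 6 and 0 reads in WT Spg and 156, 178, 93 and 104 in WT Spc (7.11, SE 0.90, limma adjusted p = 3.92e-05). MER33_dup2029 (chr13:21989511-21989612, plus strand), 777 bp after Pom121l2, had 5, 12 and 0 and then 294, 186, 146 and 204 (6.59, SE 1.02, adjusted p = 0.000233). All 4 WT Spc libraries were above all 3 WT Spg libraries for both.

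FordPrefect_dup82 (chr5:11109632-11109851, minus strand), in an exon of the long noncoding RNA gene 4930558F17Rik, had 0, 2 and 0 reads in WT Spg and 166, 84, 60 and 94 in WT Spc (6.53, SE 0.57, limma adjusted p = 1.68e-06), beside 7.66 for its host. In KO Spc it had none and was at least 52.9-fold lower than in WT Spc. MamTip2_dup363 (chr7:73139144-73139228, plus strand) had 0, 13 and 0 reads in WT Spg and 133, 63, 56 and 92 in WT Spc (6.51, SE 0.95, adjusted p = 0.000132). It had none in KO Spc either, at least 45.2-fold lower.

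MER5B_dup4549 (chr16:38615759-38615828, plus strand), opposite a gene, had 0, 2 and 0 reads and then 61, 42, 21 and 49 (6.53, SE 0.70, limma adjusted p = 8.95e-06). In all 5 copies replicate 2 had the most reads of the WT Spg libraries, and it was the one with the most counts of the meiotic gene Piwil1 (21666, against 5909 and 2321). The part of meiotic cells in that library in these values was not tested.

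Among the falls, URR1B_dup8611 (chrX:8070169-8070215, minus strand) lies in an intron of Suv39h1, a histone H3 lysine 9 methyltransferase gene. It had 20, 46 and 24 reads in WT Spg and 0, 1, 0 and 0 in WT Spc (-6.10, SE 0.80, limma adjusted p = 5.63e-05), beside -3.22 for the host. In the KO it had 11, 55 and 17 reads in Spg and 17, 19, 33 and 9 in Spc, so that KO Spc exceeded WT Spc (5.36, adjusted p = 0.000105) as the host did (3.58).

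MER5B_dup2823 (chrX:162864838-162864877, minus strand, in an intron of Syap1) had 12, 22 and 18 reads in WT Spg and 0, 0, 7 and 0 in WT Spc (-4.96, SE 1.04, limma adjusted p = 0.00244). The call was lost without WT Spg replicate 2 (adjusted p = 0.0137) or replicate 3 (0.0139). Over all X copies tested, 11 of 21 fell between WT Spg and WT Spc, and 16 of 17 were higher in KO than in WT Spc, with none called the other way in the latter. Of autosomal copies 106 of 1471 fell between WT stages, and 229 of 1332 were higher in KO Spc and 267 lower. With so few X reads in WT Spc, X copies entered the latter test mainly through KO Spc.

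The 3 remaining named falls were autosomal. URR1B_dup8547 (chr9:119466479-119466658, plus strand), 962 bp after Exog, a mitochondrial nuclease gene, had 59, 49 and 65 reads in WT Spg and 0, 0, 10 and 1 in WT Spc (-4.57, SE 0.82, limma adjusted p = 0.0008). MER5B_dup4573 (chr16:49006615-49006666, plus strand) in Cip2a, which encodes an inhibitor of protein phosphatase 2A, had 28, 20 and 41 and then 0, 2, 2 and 0 (-4.94, adjusted p = 0.00059), beside -0.78 for the host. Tigger7_dup2251 (chr8:70186991-70187083, minus strand) in Slc25a42, a mitochondrial carrier gene, had 19, 46 and 44 and then 0, 0, 5 and 1 (-4.60, adjusted p = 0.00147, or 0.011 and not called without WT Spg replicate 3), beside -2.26.

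Several of the most read copies marked known genes. MER5A_dup6092 (chr11:69938681-69938841, plus strand) lies in an intron of Ybx2, the germ-cell Y-box RNA-binding protein. It had 454, 392, 460 and 474 reads in KO Spc and 637, 1192, 1604 and 493 in WT Spc (-1.59, SE 0.25, limma adjusted p = 0.000278), while its host changed more (-4.95). FordPrefect_dup29 (chr1:186970325-186970913, plus strand) lies in an untranslated region of D1Pas1, a DEAD-box RNA helicase gene of the testis.

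FordPrefect_dup29 had 229, 176, 295 and 299 reads in KO Spc and 531, 646, 779 and 646 in WT Spc (-1.99, SE 0.31, limma adjusted p = 0.000272), beside -2.38 for the host. In WT Spg it had 171, 234 and 147 reads, below every WT Spc library (2.50, SE 0.41, adjusted p = 0.00038). Each WT Spc library was above each KO Spc library for both copies.

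Others of the most read copies went up in KO Spc. URR1B_dup7680 (chr8:111137535-111137704, plus strand), 461 bp after Pdpr, had 421, 228, 415 and 487 reads in KO Spc and 19, 57, 110 and 31 in WT Spc (2.46, SE 0.46, limma adjusted p = 0.000922). FordPrefect_dup264 (chr17:39842998-39843163, plus strand), in an exon of Gm26917, had 554, 711, 507 and 607 against 78, 108, 110 and 59 (2.16, SE 0.22, adjusted p = 2.96e-05). Both had Spg reads of 231 or more in every library, so that WT Spc was the low group. URR1B_dup14665 in 1810013L24Rik (2.11, adjusted p = 0.00279) and Charlie5_dup59 (2.07, adjusted p = 0.00671) rose too.

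Tigger17_dup122 was the longest of the named copies at 1690 bp (chr8:11755569-11757258, minus strand) and lies opposite a gene. It had 240, 99, 250 and 286 reads in KO Spc and 863, 470, 465 and 723 in WT Spc (-2.13, SE 0.52, limma adjusted p = 0.00438), and 70, 112 and 45 in WT Spg (stage difference 3.62, SE 0.62, adjusted p = 0.000507). Ricksha_c_dup160 (chr6:81899939-81900333, minus strand), 131 bp after 1700009C05Rik, had 0, 15, 8 and 10 reads in KO Spc and 247, 476, 518 and 256 in WT Spc (-6.02, SE 0.63, adjusted p = 3.43e-05). Neither overlapped between genotypes.

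Of the other most read copies, URR1B_dup5400 (-3.89, limma adjusted p = 1.21e-05), URR1B_dup8515 (-8.06), URR1B_dup12590 (-6.00) and MER20_dup1392 (-1.76, adjusted p = 0.00014) were lower in KO Spc. URR1A_dup3358, 148 bp after Lyrm2, did not pass (-0.69, adjusted p = 0.066).

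The calls are given by place as a description, since copies with no read in 1 group passed the filter through the other, and 144 of 152 such copies were called in Spc and 43 of 71 between WT stages. In Spc, where 38.0% of all tested copies differed, 59.6% of the 314 copies between genes did, 80 higher and 107 lower, and of 852 intronic copies 26.2% did, 127 higher and 96 lower. Of 43 exonic copies 2 were higher and 14 lower, and of 140 copies opposite a gene 36 and 50. Between WT stages, 71 of 282 copies between genes were higher in Spc and 18 lower, and of 1042 intronic copies 41 were higher and 89 lower. Of 46 exonic copies 8 were called higher and 2 lower, and of 122 copies opposite a gene 29 and 8. Over all tested copies, called or not, the median log2 fold change was -0.47 for exonic copies and 0.33 for copies opposite a gene.

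Intronic copies were set beside their host genes. In Spc, 845 intronic copies in 687 genes had a tested host, and the counts are a description since copy and host reads come from the same libraries and several copies share a host. Copy and host had the same sign for 61.9% of them. Of 126 risen copies, 61 had a risen host, 15 a fallen one and 50 one that was not called. Of 94 fallen copies, 85 had a fallen host, 1 a risen one and 8 one that was not called. The copies' median was 0.89 and the hosts' -0.64, and 722 copies (85.4%) lay above the host's value. The pseudocount draws copy values toward 0, which by itself places a copy above a falling host and below a rising one.

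Between WT stages the offset went the other way. Over 1037 copies in 836 genes the copies' median was -1.16 and the hosts' 0.35, and 171 copies (16.5%) lay above the host. The sign was the same for 62.4%. All 41 risen copies had a risen host, and of 89 fallen copies 66 had a fallen host, 4 a risen one and 19 one not called. By these medians, intronic copies were lower in WT Spc relative to their host gene than in either KO Spc or WT Spg. In Spg, where hardly any gene was called between genotypes, the medians over 1338 copies and their hosts were -0.11 and -0.02, and 54.0% had the same sign.

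**Figure D4:**
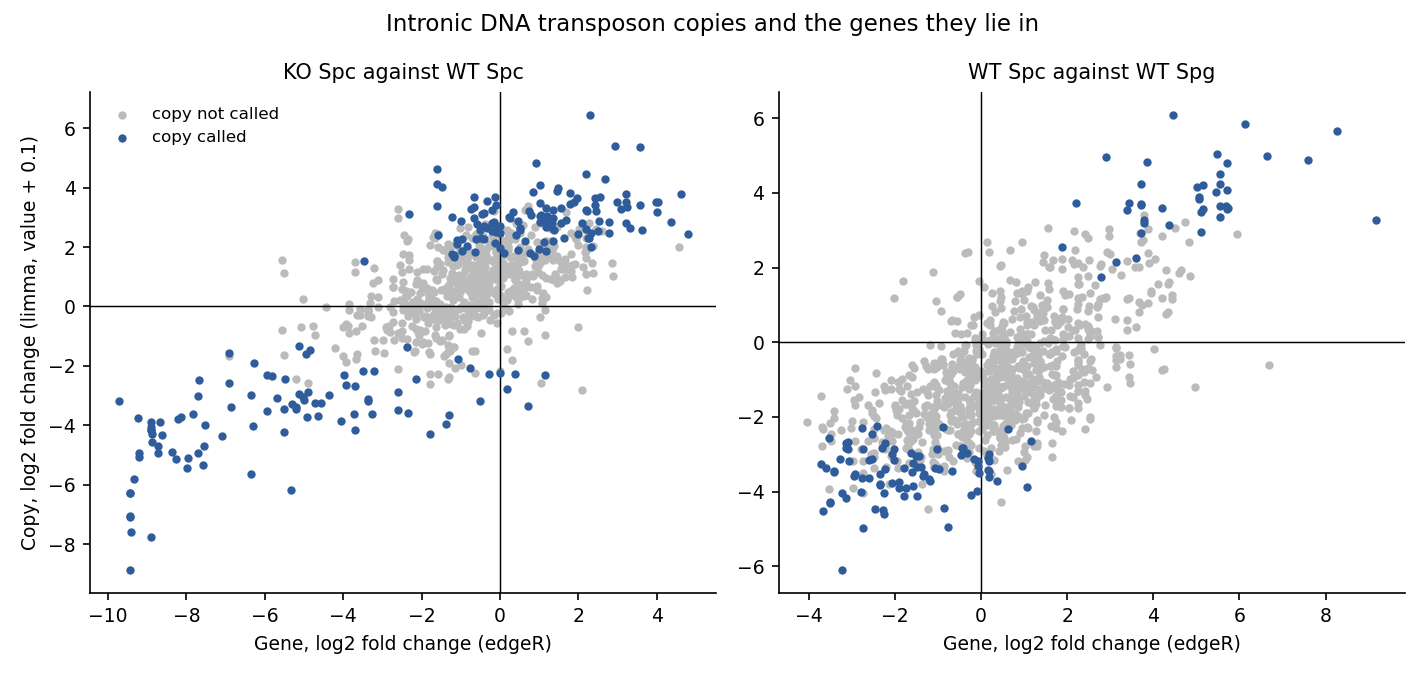
Log2 fold change of each intronic copy (vertical axis) against that of its host gene (horizontal axis), for KO over WT in Spc and for WT Spc over WT Spg. Each point is a copy, blue where it was called, and the copy value exceeded that of the gene for 85.4% of copies in the first and 16.5% in the second.

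Where a copy had risen, a risen L1 or ERVK copy often lay close by. This was examined after the values were seen and is a description. Of the 245 copies higher in KO Spc, 86 (35.1%) lay within 5000 bp of an L1 or ERVK copy of the same strand that was also higher, of 267 lower copies 1 did, and of 837 copies not called 33 (3.94%). Among the 80 risen copies between genes it was 47 (58.8%). The near element was an L1 in 69 of the 86 and an ERVK in 17, lay on the 5′ side in 48 and on the 3′ side in 38, and the median gap was 1214 bp. There were 15646 risen L1 and ERVK copies in all, 13198 of 20045 L1 and 2448 of 5743 ERVK copies tested. They were called in the same libraries as the DNA transposon copies. Nearness was not measured for risen copies of other TE classes, here or between WT stages, so it is not shown to be particular to DNA transposons.

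Some of the largest rises had such a neighbour. URR1A_dup17542 began 3 bp downstream of RLTR10B2_dup845, MER5A_dup7748 lay 700 bp after RLTR10B2_dup708, URR1B_dup10483 lay 208 bp after L1Md_T_dup16541 and RMER30_dup10 lay 1050 bp before RMER17C_dup74. RCHARR1_dup4337, in Sfi1, had none within that distance. RLTR10B2 is an ERVK long terminal repeat and L1Md_T a young L1 subfamily.

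The same pattern was seen between WT stages with fewer elements. Of 149 copies higher in WT Spc, 40 (26.9%) lay near one of 1432 risen L1 or ERVK copies, of 117 lower copies none did, and of 1226 not called 6 did. The neighbour was an L1 in 30 and an ERVK in 10, on the 5′ side in 16 and on the 3′ side in 24, with a median gap of 1562 bp. Charlie10_dup320 lay 467 bp after RLTR11C_MM_dup705, MER5B_dup4549 1541 bp before L1MC4a_dup2676 and MamTip2_dup363 2677 bp before L1ME4c_dup377. MER33_dup2029 and FordPrefect_dup82 had none within 5000 bp.

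**Figure D5:**
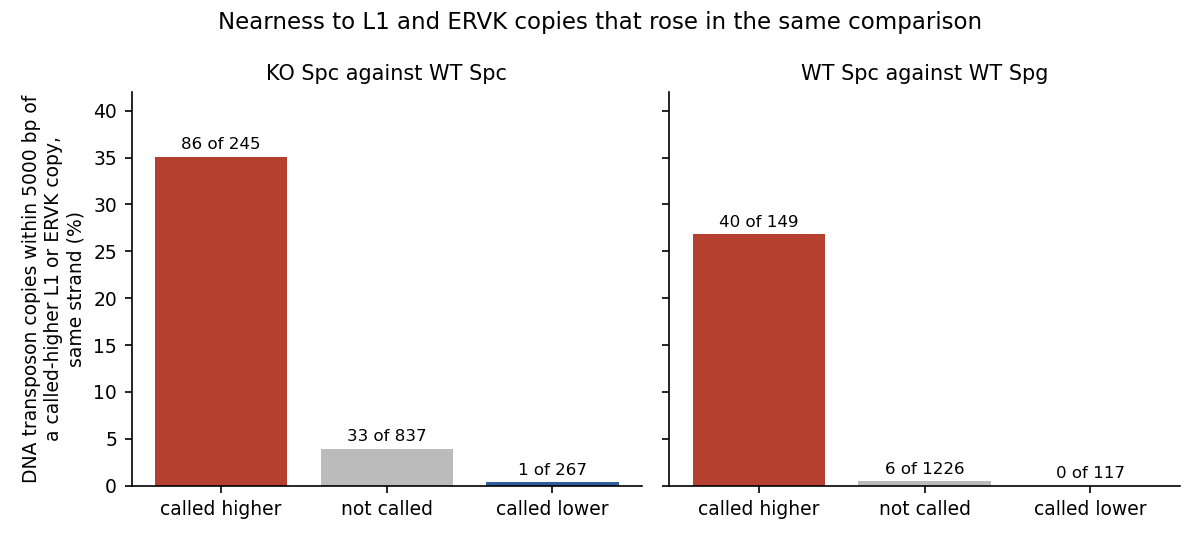
Percent of DNA transposon copies with a risen L1 or ERVK copy of the same strand within 5000 bp (vertical axis, percent of copies, with the numbers over the bars), for copies called higher, not called or called lower. In Spc 35.1% of the risen copies had one and 3.94% of those not called.

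Copies inside exons often held the end of a transcript. Of 57 exonic copies with a mean of at least 5 reads in a stage, 38 lay in noncoding exons, 11 in untranslated regions and 8 in coding sequence, and 26 held an annotated transcript end while 9 held a start. AATAAA and ATTAAA were searched for on the transcript's strand, within the copy and the last 40 bases of the transcript. Of the 26, 14 (53.8%) held one, AATAAA in 12 and ATTAAA in 2, lying 12 to 17 bases before the end. Of all complete annotated transcripts 35.4% held either, 28% AATAAA and 8.71% ATTAAA. Near-identical copies share some of these ends, so the shares are not of independent sites. The 52 bases of FordPrefect_dup82 shown above are the whole exonic part of 5 copies, and FordPrefect_dup95 carries them with a further base. All of these copies are among the ends with AATAAA.

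Where within a copy its reads lay was not measured. In FordPrefect_dup82 AATAAA stands 12 bases before the end and in Tigger17a_dup368 16 bases. Tigger17a_dup368, in 4930447C11Rik, had 0, 3 and 0 reads in WT Spg and 45, 14, 1 and 23 in WT Spc, and none in KO Spg or KO Spc. Of 12 exonic copies that fell in KO Spc with a tested host all had a fallen host, and all 8 that rose in WT Spc had a risen host. A hexamer in a copy is a description of the sequence and shows nothing of whether the end is made there.

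The genome also keeps genes that descend from transposases, and a list of 27 of them was drawn up, of which Zbed6 had no entry in the tables used here. In Spg none of the 23 tested was called by edgeR, where 0.0436% of genes were. In Spc 5 were higher and 8 lower in KO of 24 tested, where 58.8% of genes were called, and between WT stages 9 were higher and 7 lower (52.5% of genes). In the KO none of 24 differed between stages (3.05% of genes). The interaction was called for 9, 2 higher and 7 lower (25.7% of genes). The shares called lay near those of all genes in Spc.

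Thap4, of the THAP zinc-finger family, had 41.6 ± 1.8 CPM (SD, n = 4) in KO Spc and 338 ± 92 (SD, n = 4) in WT Spc, beside 48.0 and 52.4 in KO and WT Spg. The log2 fold change in Spc was -3.01 (SE of 0.25, adjusted p = 1e-05 by edgeR), and it rose by 2.69 between WT stages. Pgbd1, derived from a piggyBac transposase, fell by 3.21 in KO Spc (SE 0.33, adjusted p = 2.9e-05). Rag1, the V(D)J recombinase of lymphocytes, was low throughout, with a mean of 0.0611 CPM in KO Spc and 4.55 in WT Spc (-6.18).

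Thap1 (-2.15), Gtf2ird2 (-2.01), Naif1 (-1.82), Thap7 (-1.70) and Jrk (-1.49) were lower in KO Spc as well. Cenpb, the centromere protein descended from a pogo-like transposase, had a mean of 48.0 CPM in KO Spc and 7.23 in WT Spc (2.76), and Pogz 162 and 44.0 (1.92). Thap3 (3.12), Zbed5 (1.69) and Thap12 (1.18) were higher too. Tigd4 and Rag2 were too low to be tested.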

How the data were processed

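Per the labels and the study's methods, the authors aligned stranded polyA RNA-seq reads to GRCm38 with STAR 2.7.3a, kept reads with up to 100 alignments, and assigned them with TEtranscripts and TElocal in multi mode, so that a read shared by similar copies was divided by an estimate. The deposited counts cover genes and TE subfamilies. The deposited TPM values of single copies, relative to TE reads alone, were turned into reads with the copy lengths (100% whole within 0.01 reads).

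Counts were tested with edgeR 4.0.16 (quasi-likelihood, TMM, filterByExpr) and copies with limma 3.58.1 on the log2 scale with a pseudocount of 0.1, each adjusted by Benjamini-Hochberg over all features with a threshold of 0.01. Single values were compared by exact two-sided permutation tests over libraries (SciPy 1.17.1), with the smaller one-sided p doubled. Alternatives were DESeq2 1.42.0, other scalings, filters and pseudocounts, a replicate block and each library left out. Copies were placed with GENCODE M21, and sequences came from GENCODE M21 transcripts and a RefSeq promoter window, both of GRCm38. Counts were also simulated with few of the features changed. There edgeR called 55 of 100 features changed 4-fold and 11 of 100 changed 2-fold in Spg, and 25 and 0 in Spc. In the real Spc data 57.4% of features were called, so the simulated Spc shares do not give the sensitivity there.

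Named subfamilies were, per comparison, up to 5 called rises and 5 called falls with a mean count of at least 100 and groups without overlap (or the 5 smallest p where fewer than 5 were called), and the 10 most read. Named copies were the 5 largest called rises and falls, the 5 smallest p in Spg, and the 10 most read in WT of each stage. UCON23, the rare called subfamilies, Tigger17a_dup368 and URR1B_dup6154 were named after their values were seen. The members and lists were chosen with earlier results of these data known. Same-numbered KO and WT libraries deviated together in Spg (r 0.72, 0.19 and 0.29), though KO replicate 2 correlated more with WT replicate 3 (0.312) than with WT replicate 2. The main tests took the libraries as unpaired, and a pairing by number entered only the alternative with a replicate block. The methods speak of littermates but do not tie them to the numbers. Spc replicates 1 and 4 of each genotype were more alike than other pairs but differed beyond sampling noise, and were counted separately, although the methods speak of triplicates. Another Spg replicate of each genotype was not analysed here.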

Additional observations from a re-analysis of the deposited data

Results flagged for a closer look

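In groups of 4 libraries, 34 sets of values were examined for a library that stood far from the others, where chance alone marks about 1 in 20. KO Spc replicate 3 had a hAT-Charlie share of 0.0827% of all counts, against 0.0650% to 0.0680% in the other KO Spc libraries. KO Spc replicate 2 stood apart in the exonic share of copy reads, 6.90% against 5.31% to 5.51%, and in MamTip2, 1.75 CPM against 2.63 to 2.78. WT Spc replicate 3 stood apart in its TcMar-Tigger share, 0.0158% of all counts against 0.0103% to 0.0104%, and in the share of reads on the 10 leading copies, 22.2% against 31.2% to 32.5%.

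The effect of the KO differed between the stages, by an interaction test in edgeR, for 6 of 172 subfamilies, where 24.9% of all features were called. The count fell to 1 in 5 of the fits that left out 1 library and with Spc replicates 1 and 4 summed. The log2 difference (KO effect in Spc minus KO effect in Spg) was -2.79 for MER58C, -2.62 for MamTip2, -2.37 for Charlie10, -2.37 for Charlie19a, -2.12 for Charlie24 and -3.50 for UCON23.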

How the results depend on the processing

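Calls of subfamilies depended on the test, the scale and the threshold, and between KO stages also on the filter. The 22 calls in Spc became 56 at an adjusted p under 0.05, 43 with library totals, 50 with DESeq2 and 14 with replicates 1 and 4 summed. The 18 calls between WT stages became 42 at an adjusted p under 0.05 and 34 with DESeq2. The 1 call between KO stages became 3 at an adjusted p under 0.05 and with DESeq2, and 0 with DESeq2 size factors, without a filter and with the replicates summed. The 6 interaction calls became 16 at an adjusted p under 0.05, 2 with library totals, 1 with the replicates summed and 13 with DESeq2. The causes of these shifts were not tested. For copies, the 0 calls in Spg became 14 on the TPM as deposited and with edgeR on reads, 15 with a pseudocount of 0.02, 2 with a mean TPM of at least 0.5 and 6 with a mean of at least 20 reads, beside 3730, 4982, 4386 (each of 60267), 68 (of 252388) and 2630 (of 11930) of all TE copies. The last filter, which leaves fewer copies to test, gave 126 calls in Spc, 116 of them among the 512. Between WT stages it gave 70, 59 of them among the 266, and edgeR on reads gave 138 there.

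With TE counts in place of all counts as denominator, differences of shares turned round: for all DNA transposons -2.39 percentage points in Spc, 0.713 between WT stages and -0.684 between KO stages, for hAT-Charlie -1.65, 0.442 and -0.502, for TcMar-Tigger -0.286 in Spc and -0.127 between KO stages, and for hAT-Tip100 -0.0223 between KO stages.

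Leaving out 1 library at a time gave 15 to 27 subfamilies in Spc, 10 to 21 between WT stages, 0 to 1 between KO stages and 1 to 10 for the interaction, and 0 to 6 copies in Spg, 387 to 560 in Spc and 121 to 357 between WT stages. Shares of counts in Spg (KO minus WT) ranged from -0.0243 to 0.00761 percentage points for all DNA transposons, from -0.0170 to 0.00569 for hAT-Charlie, from -0.00512 to 0.00157 for TcMar-Tigger and from -0.00106 to 0.000231 for hAT-Tip100, and between KO stages from -0.000686 to 0.0217 for hAT-Charlie and from -6.3e-05 to 0.00663 for TcMar-Tigger. Shares of reads by place in Spg ranged from -3.60 to 1.57 points for introns, from -1.04 to 0.998 for exons, from -0.108 to 0.893 opposite genes and from -0.599 to 1.88 between genes. Between KO stages they ranged from -0.118 to 0.147 for the X and from -0.607 to 1.27 for the 10 leading copies.

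With the replicate block in Spg, where same-numbered libraries deviated together, 0 subfamilies and 0 copies were called, as without it, so the pairing changed no call within Spg. In Spc the numbers did not pair the libraries (correlations of 0.0847, 0.237, -0.0198 and 0.138), and the replicate block gave 16 subfamilies and 561 copies. The interaction had 6 calls with the block, 5 of them shared, without UCON23. Stage contrasts were not run with it, since the numbers lie within a stage. Over the named single subfamilies and copies, 785 values under the alternatives kept their direction and their side of the threshold, 63 kept their direction but no longer passed and 21 passed where they had not before. Those that no longer passed were mostly of the interaction and of Tigger17 between KO stages. Copies with few reads limit what can be seen, since 80.9% of the copies had no read in any library.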
